A study of Macaca mulatta with 38 samples.

Results

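Barcoded blood cell output was compared between the nRBC and the B libraries of 1 rhesus macaque, ZL34, on days 266, 393, 494 and 553. These are all days on which both labels have a library. The comparison used 8 of 38 libraries, 4 nRBC and 4 B, paired by day. The nRBC library of day 309 has no B library of its day and was used only to choose barcodes. The animal was a 4-year-old male. Its CD34+ cells were mobilised with G-CSF and AMD1300 (as spelled in the labels), transduced with a barcoded lentiviral library at a multiplicity of infection of 25, and returned after TBI. It was also given cidofovir, 5 mg/kg weekly, against CMV. All 8 libraries share this history, and there is no untreated animal and no second animal. Every library is labelled peripheral blood, and the labels give the cell types only as "nRBC" and "B". DNA barcodes carry no marker genes, so these cell types could not be checked against markers.

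A lentiviral barcode is a short DNA tag that enters the genome of a stem or progenitor cell and passes to all of its descendants. A cell that took up several vector copies hands on several barcodes, so barcodes do not count clones one for one. nRBC commonly stands for nucleated red blood cells, the late erythroid precursors, which normally stay in the marrow and turn over quickly. B cells arise from lymphoid progenitors, and some of them and their memory descendants persist for long periods. A blood sample of B cells can therefore hold barcodes from progenitors that were active at different times.

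Dominant barcodes are here those with a mean of at least 10% of reads over the 5 nRBC libraries. There were 6 of 44423, and they are shown because they hold nearly all nRBC reads. All other barcodes are called minor. Barcodes are numbered by their mean share over the 38 libraries. Each sequence is given up to the start of the sequencing adapter, with the shared start of the read in capitals and the variable bases in lower case.
bc1: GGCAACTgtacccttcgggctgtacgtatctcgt
bc2: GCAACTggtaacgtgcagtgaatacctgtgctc
bc3: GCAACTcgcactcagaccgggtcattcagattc
bc4: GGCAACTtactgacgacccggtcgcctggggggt
bc5: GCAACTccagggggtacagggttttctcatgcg
bc6: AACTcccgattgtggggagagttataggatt
The next sequences are the leading minor barcode of the nRBC libraries, bc11, and the 4 other minor barcodes with the highest mean share in B.
bc11: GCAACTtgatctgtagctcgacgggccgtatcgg
bc62: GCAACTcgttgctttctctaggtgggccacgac
bc112: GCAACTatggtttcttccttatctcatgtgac
bc73: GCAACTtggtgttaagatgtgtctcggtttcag
bc85: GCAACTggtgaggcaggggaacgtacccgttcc

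Of the dominant barcodes bc2, bc3 and bc5 began with GCAACT, as most sequences in the table did. The other 3 of the 6 did not: bc1 and bc4 had an extra leading G, and bc6 lacked the leading GC. Among all 44423 sequences 674 (1.52%) did not begin with GCAACT, and only 3 began with AACTCC, bc6 among them. All 6 had 27 bases between this start and the adapter. Sequences with another start than GCAACT made up 55.1%, 47.6%, 49.99% and 49.7% of nRBC reads on the 4 days, against 6.11%, 2.99%, 4.17% and 21.9% of B reads. With the dominant barcodes left out they made up 0.482%, 0.516%, 0% and 0% of nRBC reads and 1.26%, 1.34%, 1.51% and 1.26% of B reads. No sequence in the table had another at 1 mismatch or shifted by 1 base. Compared position by position, the nearest sequence to a dominant barcode was 9 mismatches away, for bc2. By mismatches alone none of the minor barcodes is thus a near copy of a dominant one. Copies with an inserted or deleted base, or shifted by more than 1 base, were not searched for.

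The nRBC libraries summed to between 3703950 and 3832849 reads. The B libraries summed to 3094373, 3138845, 789584 and 3365960 reads on the 4 days, so the B library of day 494 was the shallowest. The lowest count above 0 in the table was 101. A listed 0 was therefore taken as 100 reads or fewer, which is an inference from the counts. It stands for at most 0.0027% of reads in nRBC, at most 0.00323% in B on days 266, 393 and 553, and 0.0127% in B on day 494. There is 1 library per cell type and day, all from 1 animal, so SDs below are over days and not over animals.

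The nRBC libraries were almost wholly made of the 6 dominant barcodes on each matched day, and the B libraries were not. Their summed share was 99.3%, 98.2%, 99.9% and 99.9% of nRBC reads, against 10.6%, 3.44%, 5.29% and 41.4% of B reads. The means were 99.3% ± 0.811 in nRBC and 15.2% ± 17.7 in B (SD, n = 4 days). The gap was 88.7 percentage points on day 266, 94.7 on day 393, 94.7 on day 494 and 58.5 on day 553, with a mean of 84.2 (SD 17.3). The ranges did not overlap, and the smallest gap fell on the last day, when B was highest. Exact 95% Clopper-Pearson intervals, which cover counting error only, were 99.8 to 99.9% in nRBC and 41.3 to 41.4% in B on day 553. The barcodes were chosen for their nRBC share, so no test is given for this contrast. The lowest mean inside the threshold was 14.3% (bc6) and the highest outside it 1.36% (bc11), followed by 0.0488% (bc10) and 0.0382% (bc7). The means of bc11, bc10 and bc7 rest mainly on the nRBC library of day 309, where they held 6.09%, 0.221% and 0.149%. On the 4 matched days bc11 held 0.0463% to 0.483% of nRBC reads.

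Another choice left the matched nRBC libraries out of the selection. In the nRBC library of day 309 alone, 5 barcodes reached 10%, all of the 6 but bc6, which held 8.06%. On the 4 matched days these 5 held 81.3%, 84.0%, 84.3% and 84.5% of nRBC reads, against 8.88%, 2.89%, 4.38% and 34.95% of B reads. The nRBC share was higher on 4 of 4 days, by a mean of 70.7 points. No test is given here either, because these 5 belong to the 6 and were chosen for their nRBC share in the same animal. This choice was made after the data were seen.

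The 6 barcodes were close to each other in both cell types. bc1 held 21.7%, 19.4%, 19.3% and 19.2% of nRBC reads on the 4 days, against 1.71%, 0.580%, 1.05% and 7.73% of B reads. bc5, with the lowest mean of the 6 in nRBC on these days, held 12.7%, 14.0%, 14.3% and 14.8% of nRBC reads, against 1.77%, 0.491%, 0.707% and 6.23% of B reads. bc2 held 16.3%, 19.0%, 18.3% and 18.1% of nRBC reads, against 1.96%, 0.644%, 0.981% and 6.95% of B reads. Of these, bc1 and bc2 were the highest in the nRBC libraries of days 393, 494 and 553. bc3 held 15.3%, 17.6%, 17.3% and 17.3% of nRBC reads, against 1.89%, 0.611%, 0.871% and 7.01% of B reads. bc4 held 15.4%, 14.0%, 15.0% and 15.1% of nRBC reads, against 1.56%, 0.565%, 0.773% and 7.04% of B reads. bc6 held 18.0%, 14.2%, 15.6% and 15.4% of nRBC reads, against 1.71%, 0.550%, 0.917% and 6.40% of B reads. All 6 dipped in B on day 393 and were highest there on day 553, while in nRBC none left the range of 12.7 to 21.7%. Within a library the highest of the 6 was 1.30 to 1.71 times the lowest in nRBC and 1.24 to 1.48 times the lowest in B. The single barcodes were 7.19 to 12.7 times higher in nRBC than in B on day 266, 24.8 to 33.4 times on day 393, 17.1 to 20.3 times on day 494 and 2.15 to 2.60 times on day 553.

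The dominant set was also split in B, where no share was used to choose it, into 6 parts of like size. The makeup in nRBC is close to the shares that chose the set, so its evenness there is bounded by the choice and the comparison is a description. As a percent of the summed reads of the 6, bc1 held 20.05% ± 1.23 in nRBC and 17.9% ± 1.64 in B (SD, n = 4 days). bc2 held 18.0% ± 1.26 in nRBC and 18.1% ± 0.888 in B. bc3 held 17.0% ± 1.11 in nRBC and 17.2% ± 0.658 in B, and bc4 15.0% ± 0.516 in nRBC and 15.7% ± 1.22 in B. bc5 held 14.0% ± 0.864 in nRBC and 14.8% ± 1.41 in B, and bc6 15.9% ± 1.56 in nRBC and 16.2% ± 0.780 in B. The ranges over days overlapped between nRBC and B for 6 of 6 barcodes. The mean log2 ratio of nRBC to B ran from −0.08 (bc5) to 0.17 (bc1), and its SD over days from 0.12 to 0.21. Only bc1 was higher in nRBC in the mean. Each of these 6 mean ratios was smaller than its SD over days.

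The number of barcodes behind the reads differed by orders of magnitude. The effective number is the exponential of the Shannon entropy, the count of equally large barcodes that would give the same evenness. It was 6.13, 6.89, 5.99 and 6.03 in nRBC on the 4 days, against 4573, 7370, 2405 and 700 in B. It was thus about the number of dominant barcodes in every nRBC library, and no B library came near it. 3 barcodes made up 50% of the reads in each nRBC library, against 1764, 2043, 790 and 279 in B. 6 barcodes made up 90% of the reads in each nRBC library, against 6889, 8793, 2578 and 5415 in B. The mean log2 ratio of nRBC to B was −8.78 (SD 1.41, n = 4 days), lower in nRBC on 4 of 4 days (two-sided exact sign-flip permutation p = 0.13, the smallest that 4 days allow). The nRBC value was 745 times lower than that of B on day 266, 1070 times on day 393, 402 times on day 494 and 116 times on day 553.

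Leaving out the dominant barcodes changed both cell types, in different ways. In nRBC the effective number of the remaining reads was 3.20, 144, 1.53 and 1.54 on the 4 days, against 6880, 8132, 2703 and 6321 in B. The nRBC library of day 393 stood apart from the other 3. In B the value was 1.505, 1.10, 1.12 and 9.04 times that with all barcodes, so B of day 553, the least diverse of the 4 with all barcodes, then lay within the range of the others. The mean log2 ratio of nRBC to B was −9.92 (SD 2.79, n = 4 days), and −11.29 without day 393. No test is given, because the limit of listing fixed the direction. At more than 100 reads each, the remaining nRBC reads could list at most 244, 684, 19 and 55 minor barcodes on the 4 days, fewer than the effective number in B on each day.

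The remaining nRBC reads were few, and this limits what their diversity can show. They were 24701, 69152, 1997 and 5606 reads in nRBC, against 2766625, 3030886, 747782 and 1973944 reads in B. Spread over these nRBC reads, a barcode needed more than 0.405%, 0.145%, 5.01% and 1.78% of the remainder to be listed at all. In B the number of minor barcodes that reached those levels was 1, 3, 0 and 0. An nRBC remainder as diverse as that of B was not detectable at this depth. The largest barcode held 72.4%, 2.96%, 88.9% and 90.9% of the remainder in nRBC, against 1.22%, 0.298%, 0.386% and 0.180% for the largest in the remainder of B. On days 494 and 553 any listed nRBC barcode had to exceed the highest B share, so the order on those days was fixed by the limit of listing.

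bc11 was that largest nRBC barcode on each of the 4 days, and the only minor barcode listed in all 4 nRBC libraries. Of all reads it held 0.483%, 0.0538%, 0.0463% and 0.135% in nRBC, against 1.09%, 0.136%, 0.271% and 0.0449% in B. It was lower in nRBC on days 266, 393 and 494 and higher on day 553. By edgeR's quasi-likelihood test on all barcodes the log2 change was −0.96 ± 1.20 (SE, adjusted p = 0.423), so it did not pass. DESeq2, with its own size factors in place of column sums, put it at 2.86 in the other direction (adjusted p = 4.37e-07). On that scale the median over tested barcodes was −9.34, against −13.50 by edgeR, and bc1 was at 7.465, against 3.63. The DESeq2 and edgeR values are thus on different scales, and the changed sign is not a second result on shares of reads. With the dominant barcodes left out bc11 averaged 63.8% of the remaining reads in nRBC and 0.431% in B, and was higher in nRBC on 4 of 4 days. Its ratio of nRBC to B was then 59.3, 21.0, 310 and 1188 on the 4 days. bc11 was named for its nRBC share, so its being high there is in part a result of that choice. On days 494 and 553 the limit of listing alone would have put it above every B share. The edgeR log2 change was 7.15 ± 2.12 (SE, adjusted p = 0.0466), which for these reasons is a description and not a test of bc11. The call was lost when day 266 (adjusted p = 0.205), day 494 (0.186) or day 553 (0.141) was set aside. The direction for bc11 thus rests on whether it is read against all barcodes or against the minor ones. The Mono libraries of days 266, 494 and 553 held bc11 at 3.38%, 0.0525% and 0.130% of reads.

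The other minor barcodes of nRBC were few on 3 of the 4 days, and those named here beyond the naming rule were chosen after their values were seen. On day 494 nRBC listed 2 beside bc11: bc23 with 117 reads (0.00305%) and bc19 with 104 (0.00271%), against 0.0156% and 0.0200% of B reads. Both lie just above the lowest listed count, and they held 3.79% and 5.30% of the T library of that day. On day 553 nRBC listed 4 beside bc11, with 117 to 139 reads each. These were bc10, bc9, bc7 and bc13, of which B listed all but bc9. Each held 1.22% to 1.74% of the T library of that day, against at most 0.00766% of B reads. On day 266 nRBC listed 13 minor barcodes in all, and B of that day listed 13 of 13, each at a higher share of all reads in B. As a percent of the remaining reads all 13 were higher in nRBC. A listed nRBC barcode had to exceed 0.405% of that remainder, and 1 minor barcode of B, bc11, reached this level. The limit of listing thus fixed the order in the remainder for all but bc11. The shares that follow are of all reads. bc7 held 0.0350% of nRBC reads and 0.310% of B reads on that day. bc8 held 0.0348% in nRBC and 0.202% in B, and bc9 0.0309% in nRBC and 0.201% in B. bc10 held 0.0162% in nRBC and 0.173% in B, and bc267 0.0373% in nRBC and 0.0531% in B. The other 7 had 110 to 219 reads each in nRBC. bc7 to bc10 and bc11 were also the 5 most abundant minor barcodes of B on day 266. This was not particular to B. bc7 to bc10 each held 5.45% to 5.80% of T reads and 3.89% to 4.08% of Mono reads on that day. bc11 held 0.441% of T reads and 3.38% of Mono reads.

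The nRBC library of day 393 listed 195 minor barcodes, with 101 to 2048 reads each and a median of 240. 187 of them were listed in no other nRBC library. The B library of that day listed 150 of the 195 (76.9%), which was 1.29% of its own 11618 minor barcodes. The T library of that day listed 97 of the 195, and 175 of the 195 were listed in some matched B library. Of the 150 in both, 50 held a higher share of all reads in nRBC and 100 a higher share in B. As a percent of the remaining reads all 150 were higher in nRBC, an order that the limit of listing (0.145% of the nRBC remainder) fixed. The median share of all reads over the 150 was 0.00682% in nRBC and 0.0115% in B. Across the 150 the rank correlation of these shares was −0.0166, as a description over barcodes of 1 pair of libraries. After bc11, the most abundant in nRBC were bc3448 (0.0406% in nRBC and 0.00911% in B) and bc217 (0.0351% in nRBC and 0.00430% in B). The 3 minor barcodes that led B on this day, bc112, bc62 and bc170, were all listed at 0 in nRBC. 15 of the 195 were among the 195 largest minor barcodes of B. The 3803998 reads of this library lay within the range of the other nRBC libraries, and the part of sorting or library preparation in the longer list was not tested.

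Most of the minor barcodes listed in nRBC were also listed in B of the same day. The share of the nRBC list found in B of the same day was 100%, 76.9%, 100% and 80.0%. Of all 44417 minor barcodes B listed 8975, 11618, 3290 and 7929 on these days. The overlap was not particular to B. T and Mono of day 266 also listed all 13 nRBC minor barcodes of that day. Of the 195 of day 393, Gr of day 266 listed 140 (71.8%), and Gr of days 365 and 494, with far shorter lists, 17 and 12. Mono and Gr of day 266 listed 3664 and 4865 of the 44417 minor barcodes. The barcodes shared with B were 0.145%, 1.29%, 0.0912% and 0.0504% of the B lists and could be few at most, since the nRBC lists were so much shorter. They carried 2.497%, 2.84%, 0.324% and 0.113% of the remaining B reads. Over all 44423 barcodes the correlation of square-root shares between nRBC and B of the same day was 0.361, 0.216, 0.236 and 0.674. It was 0.161, 0.114, 0.0571 and 0.0310 over the 44417 minor ones. These r values describe pairs of libraries, in which most barcodes are at 0 in both. The high value of day 553 with all barcodes went with the 41.4% of B reads in the dominant set.

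bc11 had the highest mean share in B of any minor barcode, and the next 4, bc62, bc112, bc73 and bc85, were not listed in any nRBC library. These 4 were chosen for their B share and passed the filter on low values through B alone, so their values are a description. bc62 held 0.137%, 0.233%, 0.365% and 0.0916% of B reads and was listed at 0 in all 4 nRBC libraries, at least 78.1-fold lower in nRBC with each 0 taken as 100 reads. bc112 held 0.0916%, 0.288%, 0.277% and 0.0200% of B reads and was also at 0 in all nRBC libraries, at least 64.0-fold lower. bc73 held 0.102%, 0.0903%, 0.200% and 0.0613% of B reads, and bc85 0.0421%, 0.0974%, 0.184% and 0.105%. Both were at 0 in all nRBC libraries, at least 42.9-fold lower for bc73 and at least 40.5-fold lower for bc85. No single minor barcode of B other than bc11 passed 0.365% of reads on any of these days.

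Across barcodes, edgeR tested the 104 that reached 0.05% of reads in 2 or more of the 8 libraries, with day as a block, and called 102 of them (98.1%). 6 were higher in nRBC (5.77% of those tested), which are the dominant barcodes, and 96 were lower (92.3%). The first count restates the choice of those barcodes. The second is not independent of it, because what the dominant barcodes take of a library is not left for others. 92 of the 96 were listed at 0 in all 4 nRBC libraries. The others, bc63, bc66, bc103 and bc104, were listed in nRBC on day 393 only, at 0.00284% to 0.00634% of reads. All 96 thus passed the filter of 0.05% through B alone, and their count is a description. With each 0 taken as 100 reads, the 96 were at least 12.0-fold to 78.1-fold lower in nRBC, with a median bound of 20.6-fold. bc228 and bc11 did not pass. The calls depended on the days: setting aside day 266 left 2 calls of 88 tested (54 at an unadjusted p under 0.05), and setting aside day 393 left 47 of 48 tested. Setting aside day 494 left 0 of 32 by edgeR (24 at an unadjusted p under 0.05), and setting aside day 553 left 10 of 100 (30 unadjusted). DESeq2, run on all 4 days only, called 103. With TMM factors edgeR called 96 barcodes, all lower, and 0 of the 6 dominant ones (adjusted p = 0.0640 to 0.0793).

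With the dominant barcodes left out, edgeR tested 183 barcodes and called 127 (69.4%): bc11 higher in nRBC (0.546%) and 126 lower (68.9%). These 126 cannot be read as lower in the nRBC remainder. All 126 were listed at 0 in all 4 nRBC libraries, where 100 reads stand for a mean of 1.84% of the remaining reads. Their mean share in B was 0.0366% to 0.234%, and 0 of the 126 exceeded that limit. With each 0 set to 100 reads, 182 of 183 were called higher in nRBC and 0 lower, the opposite direction. edgeR made 0 calls when day 266, 494 or 553 was set aside (1 each at an unadjusted p under 0.05) and 97 of 118 tested when day 393 was. The contrast of minor barcodes other than bc11 was not detectable at this depth, and that of bc11 is a description.

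A minority of the minor barcodes of B were listed on every matched day. Over the 4 days 203 minor barcodes were ever listed in nRBC and 19351 in B. Listed on all 4 days were 1 of 203 (0.493%) in nRBC, which was bc11, and 1569 of 19351 (8.11%) in B. Those carried 72.4%, 2.96%, 88.9% and 90.9% of the remaining reads in nRBC, against 31.5%, 34.0%, 60.9% and 35.4% in B. Listed on 1 day only were 195 of 203 (96.1%) in nRBC and 11985 of 19351 (61.9%) in B. They carried 10.1%, 95.6%, 0% and 0% of the remaining reads in nRBC, against 30.5%, 26.9%, 3.64% and 24.0% in B. Most of the nRBC minor barcodes seen on 1 day thus belong to day 393. A further 4 barcodes in nRBC and 3840 in B were listed on 2 days, and 3 in nRBC and 1957 in B on 3 days. The shallow B library of day 494 listed 3290 minor barcodes, against 7929 to 11618 on the other days, and turnover and its higher limit of listing cannot be told apart there. Over minor barcodes the correlation of square-root shares between nRBC days was 0.802 to 0.903 among days 266, 494 and 553, and 0.183 to 0.191 with day 393. Between B days it was 0.371 to 0.588. The nRBC values among days 266, 494 and 553 mainly describe bc11, which held 72.4%, 88.9% and 90.9% of those remainders in lists of 13, 3 and 5 barcodes. They do not show that the minor output of nRBC was steadier than that of B.

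The 1569 barcodes found in B on all 4 days had been seen in B early and were seen in other cell types. 1512 of them (96.4%) were listed in B on day 32, 119 or 187. On days 266, 494 and 553, 9 of the 1569 (0.574%) were listed in some nRBC library, against 1067 (68.0%) in T, 1226 (78.1%) in Gr and 1080 (68.8%) in Mono. The nRBC libraries of those days listed only 13, 3 and 5 minor barcodes, so few barcodes of any set could appear there. Gr and Mono listed 4865 and 3664 minor barcodes on day 266, and 16 and 6 on day 494. In the 5 nRBC libraries together 82 of the 1569 (5.23%) were listed. Of the 11985 barcodes of B seen on 1 day only, 29 (0.242%) were listed in the 5 nRBC libraries and 6212 (51.8%) in B before day 266. On days 266, 494 and 553, 2 of the 11985 (0.0167%) were listed in nRBC, against 1429 (11.9%) in T, 943 (7.87%) in Gr and 678 (5.66%) in Mono. Barcodes with a higher share are listed more often in any library, so these counts compare detection and not output.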

How the data were processed

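The authors deposited 1 table of read counts per barcode, with 44423 sequences of 50 bases and 38 libraries. The values are whole and their column sums differ, which fits raw counts. Per the labels' protocols, 200 ng of DNA went into a PCR of 28 cycles for each library. How reads were assigned to barcodes, merged or dropped was not given in the sources used here. Such PCR reads carry no molecular identifiers, so they are not counts of molecules.

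Shares are percent of the column sum. The members, lists, tests and named barcodes were chosen with earlier results of these data known. Named were the dominant barcodes, the next 3 in nRBC, the 5 highest minor ones in B and in nRBC, and up to 3 called per direction with at least 0.5% of the fit's reads in some library. edgeR 4.0.16 (quasi-likelihood, column sums as library sizes, day as a block, Benjamini-Hochberg over all barcodes tested, called at 0.05) was tested on simulated data. Its p-values take serial libraries of 1 animal as independent samples. The simulated libraries had equal depth and no limit of listing. They therefore do not cover barcodes listed at 0 in nRBC or the short nRBC remainders. Sign-flip tests were exact (numpy 2.4.6). Alternatives were TMM, DESeq2 1.42.0, other filters, thresholds, indices and days left out. Day pairs the libraries because the labels give each its sampling day.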

Additional observations from a re-analysis of the deposited data

Results flagged for a closer look

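Of 44 sets of 4 days, each a summary measure or a named barcode in nRBC or in B, 15 had a day far from the other 3, by Dixon's 95% critical value for its gap over the whole range. Chance picks about 1 in 20 such sets if values are normally distributed, which was not checked. Members of the dominant set and bc7 to bc10 are not independent of each other. The 44 include bc62, bc112, bc73 and bc85 in nRBC, which were at 0 on all 4 days and could not be flagged.

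The nRBC library of day 393 was set apart by its 195 minor barcodes (next highest 13), its effective number of 144 for the minor reads (next 3.20) and its effective number of 6.89 for all reads (next 6.13). bc3448 held 0.0406% there and was listed at 0 on the other 3 nRBC days, so it would have been flagged at any share. The nRBC library of day 266 was set apart by bc1 at 21.7% and bc3 at 15.3% of reads, and by bc7 at 0.0350%, bc8 at 0.0348% and bc9 at 0.0309%. The B library of day 266 was set apart by the same small set, with bc7 at 0.310%, bc8 at 0.202%, bc9 at 0.201% and bc10 at 0.173%. The B library of day 553 was set apart by bc1 at 7.73% and bc4 at 7.04%. The labels name no batch or run for these libraries.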

How the results depend on the processing

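With all barcodes the effective number was lower in nRBC in every setting tried, and none could pass 0.05. With the dominant ones left out the limit of listing fixed the direction, so its range says nothing of stability. The mean log2 ratio of nRBC to B ran from −9.42 to −6.28 over 7 settings with all barcodes and from −11.78 to −8.93 over 11 with the dominant ones left out. The gap in the summed share ran from 70.7 to 92.7 points over 9 settings. The choice of dominant barcodes on day 309, used for both the share and the remainder, was made after seeing the data. The 6 dominant barcodes were the same at thresholds of 10% and 5%, and bc11 joined them at 1%, through its 6.09% in nRBC of day 309. Adding up near-identical sequences changed nothing, since there were none at 1 mismatch or shifted by 1 base. Counts of called barcodes moved more. With all barcodes the count of 102 was 1250 with the filter at 0.01%, 6521 with no filter, and 0 to 47 with 1 day left out. More barcodes were tested under the wider filters (2486 and 19377, against 104) and 32 to 100 with a day left out, where the 47 were of 48. With TMM 0 of 6 dominant barcodes passed. Without the replicate block it was 103, and 133 in place of 127 with the dominant ones left out. That count of 127 was 0 with the filter at 0.01%, 0 with no filter (675 and 1 at an unadjusted p under 0.05 by edgeR), 0 at a threshold of 1% (125 unadjusted) and 0 to 97 with 1 day left out, where the 97 were of 118 tested. DESeq2 called 170. With each 0 set to 100 reads it was 182, in the opposite direction, which that setting's own construction brings about. There the log2 change of bc62 was 2.06, against −14.19. DESeq2 put bc11 at 2.86, against −0.96, and the median log2 change over tested barcodes at −9.34, against −13.50, with all barcodes. It used its own size factors and not column sums, so these values are on another scale than those of edgeR.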
